A study of Homo sapiens with 4 samples.

Results

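The short-arm end of human chromosome 6, from its tip to 20 Mb (hg38), is described here through the open-chromatin regions that ATAC-seq called in it. Peak intervals from the libraries that touched by 1 bp or more were merged, and a merged region belonged to the segment when its midpoint lay on chromosome 6 below 20 Mb. This gave 1087 of the 122856 merged regions of the genome. The segment had been picked because regions with a peak in both FOXD2 lists and neither control list, called gained, outnumbered there the regions with the reverse pattern, called lost. Over the whole genome 3.89% of regions were gained and 3.87% lost. Every count of gained and lost regions below is therefore a description of these 4 libraries, and no test was made of it.

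HCT116 is an established human colorectal carcinoma line. The control cells had received lentivirus made from the empty pSin vector, and the FOXD2 cells had received pSin with the full-length coding sequence of FOXD2. All cells, controls included, were stably transduced and selected with puromycin, and the labels do not say whether they were pooled or clonal. Each group had 2 libraries of lysed cells treated with the Tn5 transposase, which inserts adapters into open DNA. Whether same-group libraries were grown separately is not stated in the labels, so their spread may be purely technical.

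Gene promoters in dividing cells are usually open, often within CpG-rich DNA, while distal open regions are shorter, weaker and differ more between cell states. Forkhead factors such as FOXD2 bind DNA through a winged-helix domain that recognises a core resembling TGTTTAC, and some members of the family can bind DNA wrapped in nucleosomes. The segment carries a group of forkhead genes (FOXQ1, FOXF2 and FOXC1), a group of clade B serpins (protease inhibitors), regulators such as TFAP2A, JARID2 and ID4, and epithelial genes such as DSP. An interval in a list states only that the authors' peak caller passed it in that library. The lowest summit pileup of a listed peak was 8 tags, and 9 tags in FOXD2 replicate 2, so a region without an interval may still hold reads.

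The promoter sequences shown next set the only annotated promoter window that touched a gained region beside 3 windows open in all 4 lists, since promoters and gained regions were almost separate in the segment. RefSeq promoter windows (GRCh38.p14) run from 250 bases before an annotated start to 50 bases after it, and the 250 bases before the start are printed 5′ to 3′ on the strand of the gene. In the first 3 sequences capitals mark CpG dinucleotides. MIR5689HG, a long noncoding host gene of a microRNA (chr6:10434079-10434328, + strand), has 4 CpG in the printed stretch. BMP6, a secreted ligand of the TGF-beta family (chr6:7725849-7726098, + strand), has 26. ELOVL2, an elongase of polyunsaturated fatty acids (chr6:11044306-11044555, − strand), has 45. In the sequence of EDN1, the gene of the vasoactive peptide endothelin (chr6:12290111-12290360, + strand), capitals mark a forkhead match.
MIR5689HG: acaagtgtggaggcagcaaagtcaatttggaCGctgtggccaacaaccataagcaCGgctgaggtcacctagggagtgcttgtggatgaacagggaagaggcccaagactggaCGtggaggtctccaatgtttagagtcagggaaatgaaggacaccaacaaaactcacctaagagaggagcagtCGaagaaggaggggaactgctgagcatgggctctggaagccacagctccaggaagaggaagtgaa
BMP6: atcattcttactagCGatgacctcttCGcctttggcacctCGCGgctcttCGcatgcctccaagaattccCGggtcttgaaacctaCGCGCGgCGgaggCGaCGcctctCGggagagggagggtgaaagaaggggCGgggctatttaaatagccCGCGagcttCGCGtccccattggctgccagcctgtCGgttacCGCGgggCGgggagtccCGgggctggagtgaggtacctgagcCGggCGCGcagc
ELOVL2: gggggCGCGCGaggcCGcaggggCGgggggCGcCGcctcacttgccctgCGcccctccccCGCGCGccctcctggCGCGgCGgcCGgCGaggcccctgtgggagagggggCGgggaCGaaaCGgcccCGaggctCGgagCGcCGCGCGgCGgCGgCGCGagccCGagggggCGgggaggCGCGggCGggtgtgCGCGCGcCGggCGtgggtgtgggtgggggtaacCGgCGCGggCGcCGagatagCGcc
EDN1: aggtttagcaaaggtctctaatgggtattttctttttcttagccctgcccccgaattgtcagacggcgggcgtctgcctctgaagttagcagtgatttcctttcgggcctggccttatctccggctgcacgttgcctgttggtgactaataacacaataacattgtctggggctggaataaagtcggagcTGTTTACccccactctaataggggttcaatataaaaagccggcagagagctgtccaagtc

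The gained region at the MIR5689HG window (chr6:10434112-10435032) had a −log10 q of 6.99 in FOXD2 replicate 1 and 6.74 in FOXD2 replicate 2. It lies 14453 bp outside TFAP2A, the gene of a developmental transcription factor. At the BMP6 window the region chr6:7725843-7727065 had −log10 q values of 30.9 and 31.7 in the control lists against 34.6 and 11.7 in the FOXD2 lists, so the FOXD2 libraries lay on both sides of the controls. At the EDN1 window (chr6:12290022-12290561) the values were 26.5 and 18.1 in the controls against 17.8 and 14 in the FOXD2 lists. By percentile within each list this region stood at 74.6 and 63.4 in the controls against 68.6 and 60.15, so the groups overlapped. Raw values ran lower in the FOXD2 lists elsewhere too. In the rest of the genome, regions present in all 4 lists had medians of 25.9 and 24.7 in the controls against 22.8 and 17.7 in the FOXD2 lists. Of the 244 promoter windows in the segment, 128 overlapped a region shared by all 4 lists, 108 overlapped none, 7 overlapped a region with another pattern, 1 overlapped a gained region and 0 a lost one. The windows in shared regions held a median of 30.5 CpG and those without a region a median of 4, over the full 300 bases. The forkhead letters TGTTTAC, searched on both strands (GTAAACA on the other), occurred in 10 of the 244 windows (4.1%), and in 3.42% of the 35116 promoter windows of the genome. The AP-1 letters TGANTCA, which read alike on both strands and do not overlap the forkhead letters, occurred in 14 windows (5.74%) and in 7.71% of all windows. A match of letters is a description of the window and not of binding.

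Facts of the whole series that bear on these counts are few. The lists held 77752 and 72796 intervals in the controls against 82739 and 64675 in the FOXD2 libraries, and the lists do not give the read depth. FOXD2 replicate 1 was thus the longest list and FOXD2 replicate 2 the shortest. Within the FOXD2 gene itself, on chromosome 1, an interval had a −log10 q of 17.1 and 17.7 in the FOXD2 lists and 8.29 in control replicate 1, and was not listed there in control replicate 2. The FOXD2 cells also carried the introduced coding sequence, and the lists do not tell its tags from those of the chromosome 1 gene. Of 10 colon epithelium markers, 9 had a gene-end peak in all 4 lists, as did 2 of 5 leukocyte, 1 of 5 endothelium and 3 of 5 fibroblast markers. PTPRC (leukocytes), PECAM1 and VWF (endothelium) and DCN and LUM (fibroblasts) had none in any list.

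In the segment, control replicate 1 had a peak in 614 of the 1087 regions (56.5%), control replicate 2 in 582 (53.5%), FOXD2 replicate 1 in 747 (68.7%) and FOXD2 replicate 2 in 553 (50.9%). In the rest of the genome the shares were 61.8%, 56.8%, 65.6% and 50.8% in the same order. The segment was thus below the rest in both controls, above it in FOXD2 replicate 1 and level with it in FOXD2 replicate 2. As a share of each library's own regions, the segment held 0.810% and 0.834% in the controls against 0.927% and 0.886% in the FOXD2 libraries, without overlap between the groups. These shares count the gained and lost regions by which the segment was picked, so the separation partly restates that choice. The next 20 Mb of chromosome 6 held 1.27% and 1.33% in the controls against 1.23% and 1.33% in the FOXD2 libraries, with overlap.

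**Figure D1:**
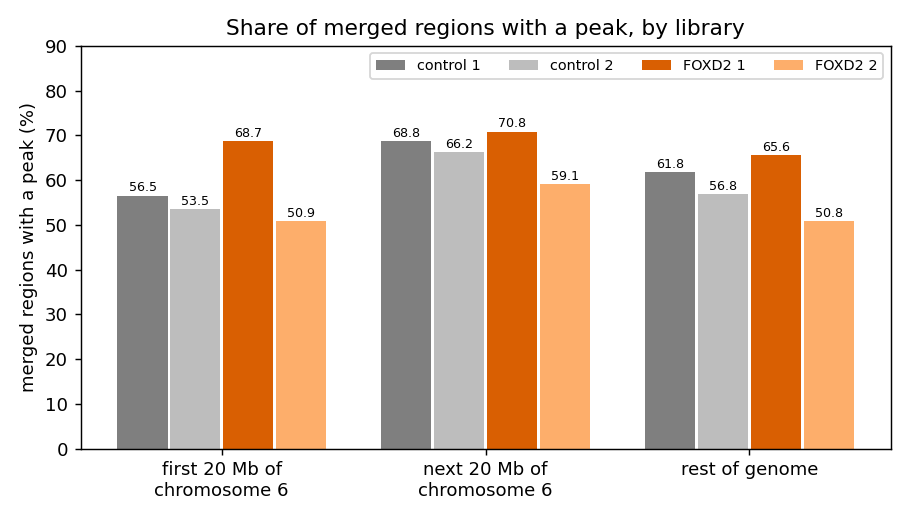
Bars give the percentage of merged regions with a peak in each of the 4 libraries (y axis, from 0), for the first 20 Mb of chromosome 6, the next 20 Mb and the rest of the genome (x axis). In the first 20 Mb the bar of FOXD2 replicate 1 stands at 68.7% and the other 3 lie between 50.9% and 56.5%.

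Of the 1087 regions, 67 were gained (6.16%) and 22 were lost (2.02%). Of all regions of the genome, 3.89% were gained and 3.87% lost. Because the segment was chosen by this contrast, nothing is read from the difference. Gained regions made up 75.3% of the gained and lost regions (95% Clopper-Pearson interval 65.0% to 83.8%, for counting error only), against 49.9% in the rest of the genome. The interval takes regions as independent and does not allow for the choice of the segment. A further 331 regions (30.5%) were shared by all 4 lists, and 189 (17.4%) were in FOXD2 replicate 1 alone. Regions in 1 list alone numbered 109 for control replicate 1, 96 for control replicate 2 and 70 for FOXD2 replicate 2, so the longest list also had the most regions of its own. When the genome was divided into windows of 20 Mb, 147 others held at least 20 gained and lost regions. Their gained share ran from 27.6% to 73.2% with a median of 49.3%, so 0 of them reached the segment's share. The segment was picked for its excess of gained regions, so its place above these windows is not a separate result. With 1 library left out a call rests on the other 3 lists, and gained and lost regions numbered 89 and 118 without control replicate 1, 87 and 131 once control replicate 2 was gone, 137 and 80 when FOXD2 replicate 1 was left out, and 256 and 46 when FOXD2 replicate 2 was. The gained share then exceeded that of the rest of the genome by 10.1, 13.2, 9.70 and 8.20 percentage points, against 25.4 with all 4 libraries.

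The number of gained regions varied along the segment. Intervals of 5 Mb from the tip held 20 gained and 8 lost, 14 and 4, 9 and 3, and 24 and 7 regions, so gained regions exceeded lost ones in each. The densest 2.5 Mb were the last ones inside, from 17.5 to 20 Mb, with 12 gained and 4 lost among 86 regions (14 gained per 100 regions). Between 12.5 and 15 Mb, 3 regions were gained and 3 lost. Just past the edge gained regions were fewer than in the last 2.5 Mb inside. From 20 to 22.5 Mb 5 regions were gained and 7 lost among 92 (5.43 and 7.61 per 100 regions). Inside the segment, stretches of 2.5 Mb ran from 2.63 to 14 gained and from 0 to 4.65 lost per 100 regions. The gained rate from 20 to 22.5 Mb thus lay within the range inside, and the lost rate above it. From 22.5 to 25 Mb none of 45 regions was gained or lost. From 25 to 30 Mb gained regions again led, with 16 gained and 10 lost, so that 20 to 30 Mb held 21 gained and 17 lost regions. The excess of lost regions lay from 30 to 40 Mb, with 18 gained and 32 lost. From 20 to 40 Mb as a whole 39 were gained and 49 lost, a gained share of 44.3% (33.7% to 55.3%). The running sum of gained minus lost reached 45 at 20 Mb, touched a maximum of 50 at 30.1 Mb and stood at 35 at 40 Mb. The last 3 regions inside the limit were chr6:19873097-19873346, listed in all but FOXD2 replicate 2, and chr6:19892214-19892674 and chr6:19999646-20000158, listed in all 4. The 3 just outside it were chr6:20027921-20028533, in all 4 lists, and chr6:20032383-20032727 and chr6:20059017-20059266, both in FOXD2 replicate 1 alone. The regions next to the limit were thus neither gained nor lost.

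**Figure D2:**
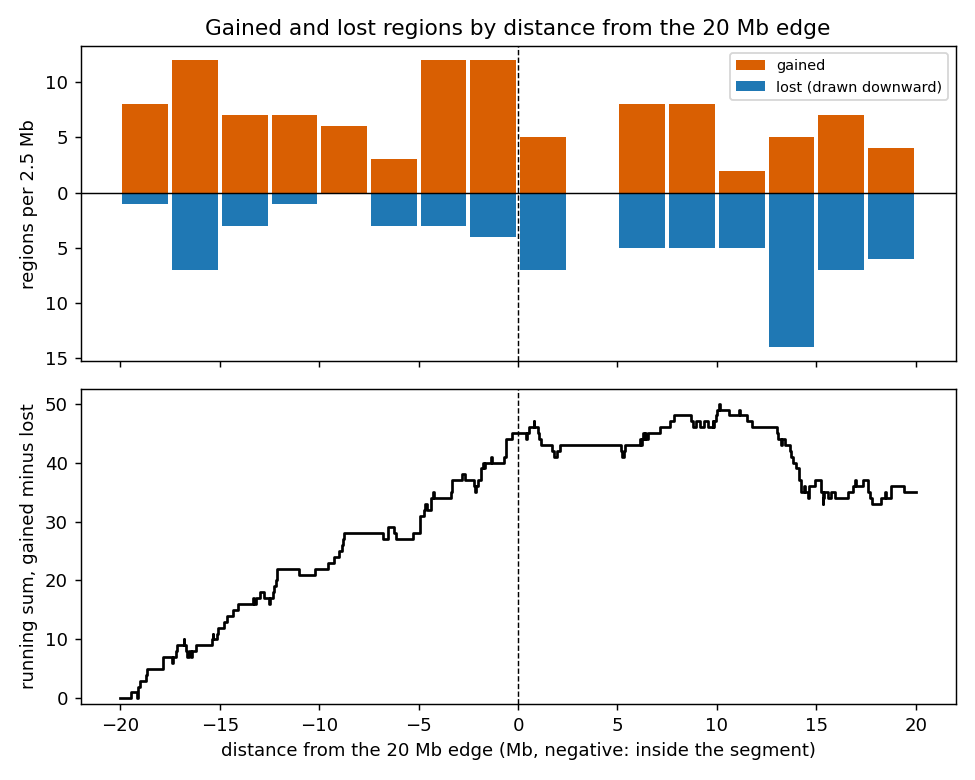
The upper panel counts gained (upward) and lost (downward) regions per 2.5 Mb against the distance from the 20 Mb edge in Mb, and the lower panel gives the running sum of gained minus lost. The sum climbs to 45 at the edge and ends at 35 at 40 Mb.

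Runs of gained regions were read along the gained and lost regions alone, so shared and other regions lie within them. Gained regions outnumbered lost ones by the choice of the segment, and longer gained runs partly follow from that. Runs of 7 spanned chr6:869123-2162121 (around FOXQ1 and into GMDS), chr6:4854336-6678761 (CDYL to LY86) and chr6:9766266-11251998 (TFAP2A to NEDD9). Runs of 6 spanned chr6:7548701-7887585 (DSP, BMP6 and TXNDC5) and chr6:14734805-15331373 (toward and into JARID2). Runs of 5 lay at chr6:17864302-18242656 (KIF13A, TPMT and DEK) and at chr6:19268827-19715375, whose nearest gene is ID4, an inhibitor of basic helix-loop-helix factors, at 121995 to 567513 bp. No lost run inside the segment was longer than 3. Past the edge, a run of 6 lost regions began at chr6:20810368-21808460, in and beyond CDKAL1, a tRNA-modifying enzyme, and a run of 9 lay at chr6:33431014-34238373. Runs of 4 gained regions lay there too, at chr6:26539246-27862951 and chr6:29860719-30096048. The other genes examined past the edge held little: SOX4 and MBOAT1 had 0 gained and 0 lost regions, and E2F3 had 1 gained and 0 lost.

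None of the 67 gained and none of the 22 lost regions reached the 1000 bp around either end of a coding gene. A count of 0 allows a share of up to 4.48% of gained and 13.6% of lost regions, and in the rest of the genome the shares were 3.80% and 8.19%, so a difference was not detectable at these counts. Shared regions lay at gene ends in 71 of 331 cases (21.5%), against 31.7% in the rest of the genome. Of the gained regions 31 (46.3%) lay inside a protein-coding gene, 19 lay outside but within 100 kb, and 17 (25.4%) lay farther away. In the rest of the genome 56.7% of gained regions were inside genes and 10.7% beyond 100 kb. Shared regions beyond 100 kb were also more frequent in the segment, at 15.1% against 6.05%. Of the lost regions 8 lay inside a gene and 3 beyond 100 kb. Gained regions had a median width of 376 bp and lost ones of 361 bp, while shared regions were wider, at 710 bp. The gene ends themselves were much alike in the 4 lists: of 89 protein-coding genes, 68 had a gene-end peak in all 4 lists, 13 in none and 8 in 1 to 3 lists. The lists held such a peak for 73 genes each, except FOXD2 replicate 2 with 70.

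Most gained regions stood apart from regions already open in the controls, as they did elsewhere. Of the 67, 7 (10.4%) lay within 2 kb of a region present in both controls, with a median gap of 16.9 kb, against 13.7% and 12 kb in the rest of the genome. For lost regions and those present in both FOXD2 lists, 3 (13.6%) lay this close, against 16.9%. LY86, which encodes the secreted partner of the receptor CD180, has a close pair with a gained region. The gained region chr6:6678280-6678761 lies 842 bp from the shared region chr6:6676876-6677437, whose −log10 q was 22.1 and 27.3 in the controls against 15.3 and 6.53 in the FOXD2 lists. The shared region chr6:6686803-6687570 lies nearby with −log10 q values of 121 and 116 in the controls against 113 and 85.6 in the FOXD2 lists. By percentile within each list it was slightly higher with FOXD2, at 99.5 and 99.6 in the controls against 99.8 and 99.7. A lost region followed at chr6:6696934-6697216, with 17.2 and 8.72 in the controls. Gained, lost and shared regions thus stood within a stretch beyond 1 end of LY86. DSP, which encodes the desmosomal plaque protein desmoplakin, has the reverse pair. The lost region chr6:7481499-7481990 (7.38 and 7.65 in the controls) lies 1189 bp from the shared region chr6:7479867-7480309, which rose as described below.

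Regions were given to the closest coding gene, up to 100 kb away. Of the 89 genes, 85 had a region and 35 had a gained or lost one, of which 21 had gained regions only, 3 lost only and 11 both. In 10 genes gained regions outnumbered lost ones by 2 or more, and in 2 genes the reverse held. These counts rest on the calls by which the segment was picked, so nothing is read from their balance. The same counts were not made for genes elsewhere, and genes with more regions had more occasions for a call.

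BMP6 led with 4 gained and 0 lost among its 11 regions. Its regions with a peak numbered 5 in each control, 9 in FOXD2 replicate 1 and 10 in FOXD2 replicate 2. The strongest, chr6:7730891-7731232 inside the gene, had −log10 q values of 17.5 and 14.9, 3825 bp from the promoter region given above. The others lay at chr6:7697902-7698271, before the gene, and at chr6:7813798-7814123 and chr6:7878326-7878918 inside it. TPMT, the thiopurine methyltransferase that inactivates thiopurine drugs, had 3 regions in all. Its promoter region was in every list, and 2 neighbours inside the gene, chr6:18147114-18147485 (14.1 and 8.89) and chr6:18148323-18148579 (7.54 and 8.46), were gained. Each gained region adds by definition to both FOXD2 lists and to neither control, so these totals partly restate the choice of the genes.

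ATXN1, which encodes a transcriptional repressor subunit, had 3 gained and 0 lost among 40 regions. Its lists held 27 and 26 regions in the controls against 32 and 20 in the FOXD2 libraries, so its total did not separate the groups. FOXQ1, a forkhead gene known for high expression in colorectal tumours, had 2 gained regions, 1 on each side of it. The one at chr6:1287062-1287610, 24488 bp away, had −log10 q values of 29.5 and 17.4, and the one at chr6:1325321-1326301, 10563 bp away, had 13.2 and 22.5. FOXF2 and FOXC1, next to it, had no gained or lost region.

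CDYL, a chromodomain corepressor, and DTNBP1, which encodes the organelle-sorting protein dysbindin, each had 3 gained and 1 lost. NEDD9 (a focal adhesion scaffold), GFOD1, FARS2 (the mitochondrial phenylalanyl-tRNA synthetase) and GMDS (which starts the synthesis of GDP-fucose) each had 2 gained and 0 lost. DTNBP1 held 5 regions in each control and 8 and 6 in the FOXD2 lists, and GFOD1 held 5 in each control and 10 and 6. Their gained regions add to both FOXD2 totals by definition. Of 86 genes with an assigned region, 9 had more in both FOXD2 lists than in both controls, and 3 had fewer. The totals of the groups overlapped in CDYL, FARS2, GMDS and NEDD9, as in NEDD9 with 7 and 14 regions in the controls against 15 and 10 in the FOXD2 lists. On the other side, SLC22A23, a solute carrier, had 2 gained and 4 lost among 31 regions. Its lists held 20 and 16 regions in the controls against 18 and 13 in the FOXD2 libraries. MCUR1, a regulator of mitochondrial calcium uptake, had 0 gained and 2 lost among 9 regions. Both lost regions of MCUR1 were weak, with 6.89 and 5.67 at chr6:13766256-13766525 and 4.54 and 7.03 at chr6:13860143-13860487.

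**Figure D3:**
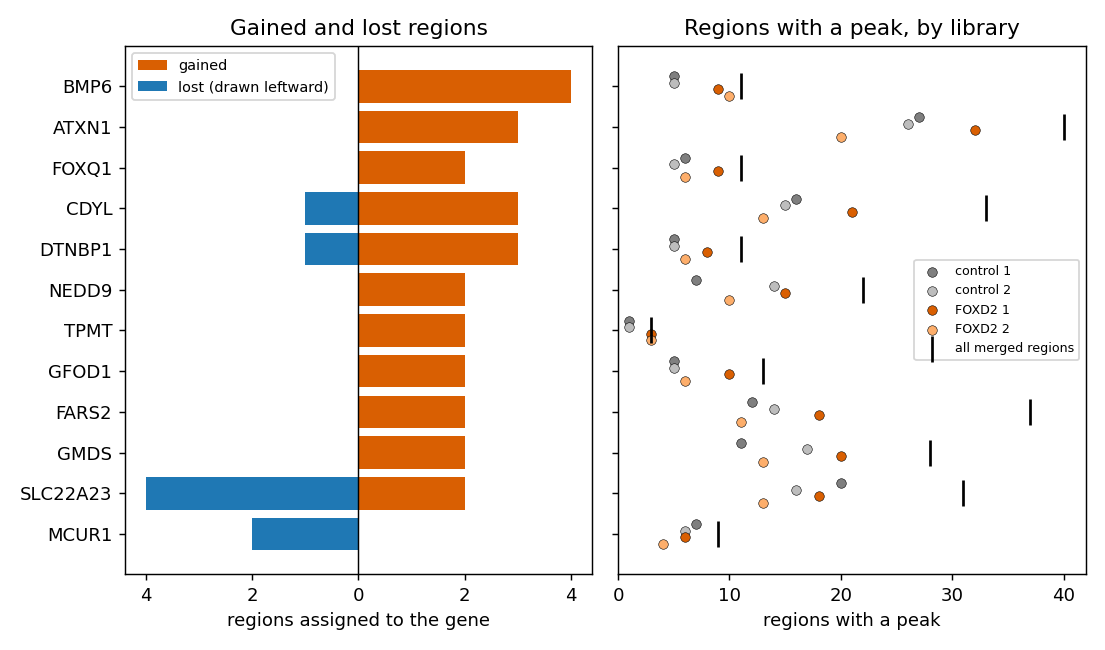
For the 12 genes with a difference of at least 2 between gained and lost regions, the left panel counts gained (rightward) and lost (leftward) regions, and the right panel gives the number of regions with a peak in each library, with a tick for all merged regions of the gene. BMP6 has 5 regions in each control and 9 and 10 in the FOXD2 libraries, while in ATXN1 the FOXD2 libraries, at 32 and 20, enclose the controls.

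Read by role, 49 genes of 10 lists lay in the segment, of which 13 had gained regions only, 3 lost only, 9 both and 24 neither. The transcription factors had 5 gained and 1 lost among 116 regions of 6 genes (4.31% and 0.862%), below the segment's 6.16% and 2.02%. The gained ones lay at ATXN1, TFAP2A and RREB1 (a zinc finger factor downstream of RAS signalling), and RREB1 also had the lost one. IRF4, HIVEP1 and ID4 had none assigned. Of the 4 chromatin genes, JARID2, an accessory subunit of the Polycomb complex, had 2 gained and 1 lost, and DEK, a chromatin-binding oncoprotein, had 1 of each, so the list held 6 gained and 3 lost among 67 regions with CDYL (8.96% and 4.48%). The epithelial adhesion and cytoskeleton list was even, with 6 gained and 6 lost among 87 regions of 7 genes (6.90% of each, where the segment had 6.16% gained and 2.02% lost). KIF13A, a kinesin motor, had 2 of each, PHACTR1 and CAP2, both actin regulators, had 1 lost each, and TUBB2A, a beta-tubulin, had 1 of each. The mitochondrial and metabolic list held 8 gained and 2 lost among 142 regions of 11 genes (5.63% and 1.41%), close to the 6.16% and 2.02% of the whole segment. These besides those named above included 1 gained region each at LYRM4, an iron-sulfur cluster assembly factor, and ELOVL2. Among the signalling genes, with 39 regions (10.3% gained and 0% lost), BMP6 held all 4 changed ones. EDN1, RIPK1, DUSP22 and MYLIP had none. SERPINB1, EXOC2 (an exocyst subunit) and RNF144B (a ubiquitin ligase) had 1 gained region each.

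The gained regions were mostly weak to middling, with median percentiles of 46.1 in FOXD2 replicate 1 and 32.4 in FOXD2 replicate 2. Their −log10 q had a median of 9.18 in FOXD2 replicate 1 (range 3.39 to 29.5) and 7.44 in FOXD2 replicate 2 (2.87 to 26.8), against 7.77 and 7.38 for gained regions elsewhere. In 9 of 67 (13.4%) both values lay in the upper 50% of their list, and elsewhere 13.7% did. For the lost regions 4 of 22 (18.2%) did, against 7.33% elsewhere. At least 1 value lay below percentile 20 in 25 gained regions (37.3%), against 42.0% elsewhere. Among the lost regions this held for 6 (27.3%), against 50.2% elsewhere.

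Gained and lost regions were ordered by the lower of their 2 percentiles. The gained region that led by this measure, chr6:3592378-3592899, lay 129720 bp from its nearest gene, PXDC1, with −log10 q values of 22.2 and 26.8, although the FOXQ1 region at 29.5 was higher in FOXD2 replicate 1. The PXDC1 region was the only one of the 10 strongest beyond 100 kb of a gene. After those named at FOXQ1, BMP6 and LY86, the next were chr6:11207143-11207639 inside NEDD9 (18.1 and 17.1), chr6:11126713-11127471 inside SMIM13 (15.9 and 17.3) and chr6:17998430-17998812 beside KIF13A (20.0 and 15.3). The remaining ones of the 10 lay inside SLC22A23 at chr6:3337550-3338133 (12.8 and 12.7) and inside ATXN1 at chr6:16677008-16677340 (15.7 and 10.6).

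By the same measure the first lost region was chr6:17804247-17804492 inside KIF13A, with −log10 q values of 16.5 and 16.6 in the controls. It was followed by chr6:17354671-17355045 near CAP2 (15.6 and 15.2), chr6:8958930-8959359 far from any gene (20.0 and 13) and chr6:18692994-18693421 at 224124 bp from RNF144B (12.1 and 32.0). The 32.0 of the RNF144B region was the highest value of any lost region in 1 list. The next lay near TUBB2A at chr6:3179992-3180331 (13.2 and 10.5) and inside SLC22A23 at chr6:3329770-3330584 (8.97 and 8.87). The KIF13A gene thus held a strong lost region and, 10795 bp outside it, a strong gained one.

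Shared regions were compared by rank, the percentile of a region's −log10 q within its own list. Of the 331, 58 (17.5%) ranked higher in both FOXD2 lists than in both controls and 63 (19%) lower, where 15.8% and 20.5% did over the whole genome. Those numbers are close to the background. The median change was 0.0431 percentile points, against −0.965 in the rest of the genome and −1.68 from 20 to 40 Mb. Their median percentiles were 70.9 and 67.8 in the controls against 71.7 and 65.3 in the FOXD2 lists, so the groups overlapped.

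**Figure D4:**
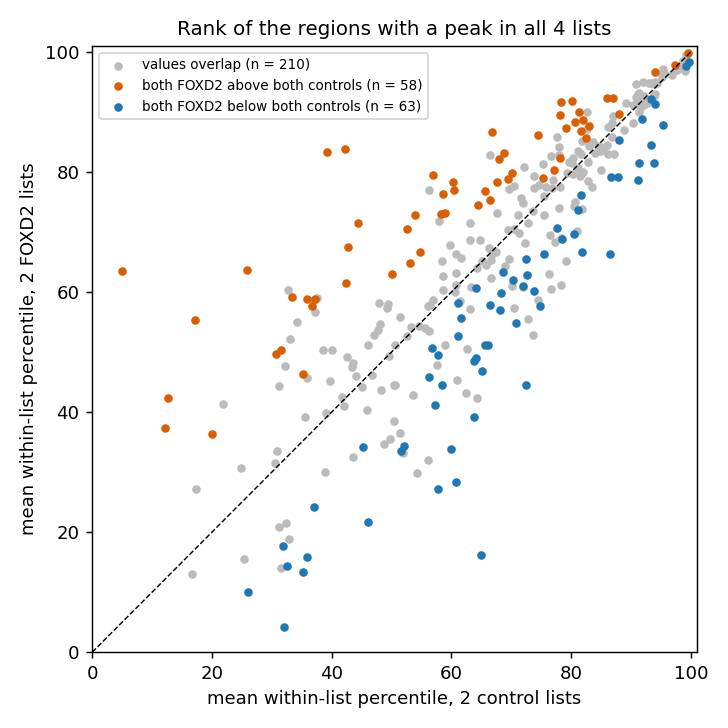
Each point is 1 of the 331 regions with a peak in all 4 lists, placed by its mean within-list percentile in the 2 control lists (x axis) and in the 2 FOXD2 lists (y axis), and the dashed line marks equal rank. The 58 regions above both controls and the 63 below both are spread on either side of the line.

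The largest rises and falls of rank were, but for 1, at single regions away from gene ends. The region 61362 bp from DSP (chr6:7479867-7480309) had −log10 q values of 4.00 and 3.67 in the controls against 21.6 and 11.6 in the FOXD2 lists. Inside ATXN1, chr6:16539401-16539915 had 6.40 and 13 in the controls against 27.9 and 33.8 in the FOXD2 lists, while chr6:16514353-16514735 in the same gene moved the other way, with 20.0 and 11.1 against 7.49 and 5.6. ATXN1 therefore held a large rise and a large fall. Inside NEDD9, chr6:11344239-11344789 had 18.8 and 5.72 against 38.0 and 27.4. The other rises were near RREB1 (7.11 and 4.05 against 12.2 and 12), near SNRNP48, a minor spliceosome protein (6.26 and 7.03 against 15.3 and 15.3), and inside NQO2, a quinone reductase (5.21 and 4.84 against 10.3 and 7.69). Rises were taken only from regions where both FOXD2 ranks exceeded both control ranks, so that order in these 6 regions was fixed by the choice. Falls were taken by the reverse rule.

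The largest fall lay inside EEF1E1, a subunit of the multi-tRNA synthetase complex, at chr6:8085099-8085461, with 26.0 and 14.1 in the controls against 5.80 and 4.14 in the FOXD2 lists. Other falls lay 188210 bp from GMDS (15 and 17.4 against 7.92 and 5.48) and inside SLC22A23 (7.60 and 7.38 against 4.05 and 3.09), and at the LY86 region given above. The ELOVL2 promoter region, whose sequence is printed above, was the only one of these 12 at a gene end. It had 14.9 and 16.4 in the controls against 11.3 and 4.94 in the FOXD2 lists. As a group, the 71 shared gene-end regions were even, with 10 above and 10 below both controls.

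Ordered by the lowest of their 4 percentiles, the first 8 shared regions were, apart from the LY86 region, at gene ends. They were those of BPHL (a hydrolase), RPP40 (a ribonuclease P subunit), NOL7 (a nucleolar protein), TMEM14B, SLC35B3 (a transporter of the sulfate donor PAPS), TMEM14C (needed for haem synthesis) and TPMT, with percentiles between 96.2 and 99.9 in every list. For BPHL the −log10 q values were 128 and 99.3 in the controls against 97.1 and 81.3 in the FOXD2 lists. Its percentiles overlapped, at 99.7 and 98.8 in the controls against 99.4 and 99.5 in the FOXD2 lists. A region of TFAP2A away from gene ends had percentiles of 99.1 and 99.0 in the controls against 99.7 and 93.9 in the FOXD2 lists, and stood behind them by its last value.

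The local background recovered at the peaks also differed between the groups in the segment. Fold enrichment and −log10 p together fix the tag pileup at a summit and the expected local background, and both were recovered for every peak. At shared peaks of the segment the median background, relative to the rest of the genome in the same list, was 0.717 and 0.739 in the controls against 0.817 and 0.840 in the FOXD2 libraries. The groups did not overlap, and the ratio of FOXD2 to control was 1.14. From 20 to 40 Mb the values were 1.19 and 1.15 in the controls against 1.12 and 1.12 in the FOXD2 lists. By 5 Mb from the tip the ratio was 1.03, 1.24, 1.14 and 1.09 inside the segment and 1.01, 0.876, 0.929 and 1.03 beyond it. The highest ratio, from 5 to 10 Mb, did not coincide with the most gained regions, which lay from 15 to 20 Mb.

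**Figure D5:**
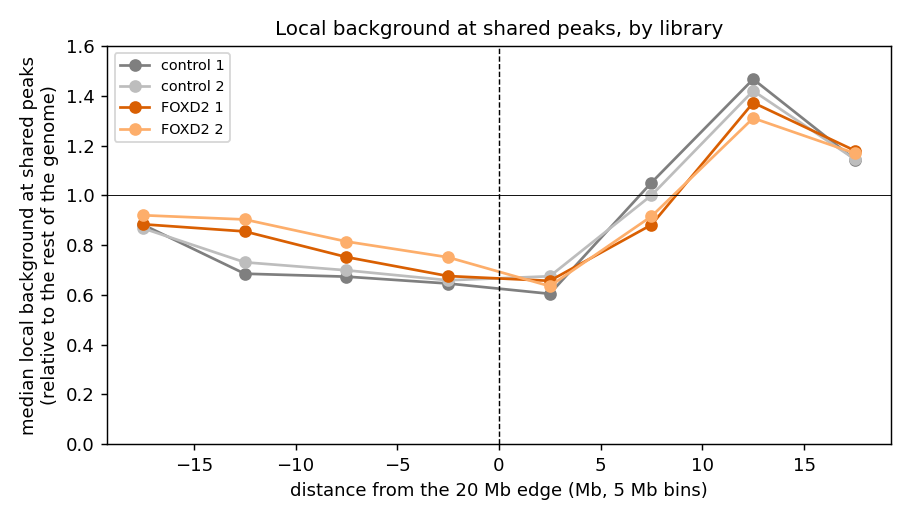
Points give the median local background at shared peaks in each library, divided by its median in the rest of the genome (y axis), per 5 Mb against the distance from the 20 Mb edge (x axis). Inside the segment the FOXD2 libraries lie above the controls in every bin, least so at the tip, where the ratio is 1.03.

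The summit pileup of the shared peaks had a ratio of 1.12, and the fold enrichment a ratio of 1.01. The peak caller's settings are not stated, so its background may count tags of the peak itself. Pileup and background may therefore move together partly by construction, which was not tested. Restricted to the 265 shared regions whose background lay above the lowest value of each list, the background ratio was 1.04. That lowest value was 1.68 and 1.71 tags in the controls against 1.84 in each FOXD2 list. Among the 147 other windows of 20 Mb the ratio ran from 0.874 to 1.22 with a median of 1.02, and 5 were above the segment. Without FOXD2 replicate 2 the ratio in the segment was 1.07. The lists do not tell a change at single regions from one along the whole stretch, and the part of the local background in the gained regions was not tested.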

How the data were processed

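ATAC-seq was measured in 2 control and 2 FOXD2 libraries of HCT116 cells. The submitters' processing notes name MACS2 2.2.7.1, Bowtie2 2.3.4.1, cutadapt 3.4, bedtools, Picard and the hg38 build. Their settings, any pooling and any Tn5 shift are not stated there. The authors deposited 1 peak list per library with a fold enrichment (a ratio to local background), a −log10 p, a −log10 q and a whole-number score, which was not used. Intervals on chromosomes 1 to 22 and X were merged at 1 bp of overlap. Ranks are percentiles of the deposited −log10 q within a list. Pileup and background were recovered from the deposited fold and −log10 p by the Poisson relation with a pseudocount of 1, and returned the deposited −log10 p to within 0.002 in 100% of the peaks tested. The merging, calls and recovery were tested on simulated data. Gene positions are those of RefSeq on GRCh38.p14 (19821 protein-coding genes in a table without strand or exons, so places within genes are not resolved), and 82 of the 89 genes of the segment had a promoter window. Read depth is not given in the lists. Python 3.11.15 with pandas 2.3.3, NumPy 2.4.6 and SciPy 1.17.1 was used. The members, gene lists and rules were chosen with earlier results of these data known. The rule for named genes took the genes with at least 2 gained or lost regions on balance. It also took the 10 strongest gained and 6 strongest lost regions, and the 6 largest rises and 6 largest falls of rank. Rises and falls were taken only where both FOXD2 ranks lay on the same side of both control ranks. List members with a gained or lost region and genes at the borders of runs of gained regions were taken too. No test was made, since the segment was chosen from this contrast and 2 libraries against 2 cannot give an exact two-sided permutation p below 0.333.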

Additional observations from a re-analysis of the deposited data

How the results depend on the processing

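Gained regions exceeded lost ones under each alternative that kept all 4 libraries, and the gained share of the segment exceeded that of the rest of the genome under each alternative tried. Lost regions rose to 36 with windows around summits in place of whole intervals, beside 73 gained. With the segment ended at 15 Mb, 43 regions were gained. Leaving out 1 library at a time gave 87 to 256 gained and 46 to 131 lost regions, and lost ones outnumbered gained ones without either control. The gained share then exceeded the rest by 8.20 to 13.2 percentage points, the rank change of shared regions by 0.248 to 1.23 points against 1.01 with all libraries, and the background ratio was 1.07 to 1.14. With fewer lists a call needs fewer intervals, so these counts are larger by construction. The background ratio fell to 1.04 when peaks at the lowest background were left out, and the cause was not tested. With genes assigned within 20 kb or by nearest gene end, 9 and 11 genes had at least 2 gained regions on balance. Within 20 kb FOXQ1 had 1 gained region, MCUR1 0 lost and SLC22A23 2 gained and 3 lost, so neither gene named for lost regions kept 2 on balance. No paired analysis was possible because the results come from no test. Peaks under 8 tags could not enter a list, which limits every absence.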
